A study of Mus musculus with 6 samples.

Results

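The genes that gate the entry of pyruvate into mitochondria were followed in the soleus (Sol) muscle of mice with and without LSD1 after voluntary wheel running (VWR). The 9 genes were taken by symbol from a table of 24411 genes: 4 pyruvate dehydrogenase kinases (Pdk1 to Pdk4), 3 subunits of pyruvate dehydrogenase phosphatase (Pdp1, Pdp2 and Pdpr) and both subunits of the mitochondrial pyruvate carrier (Mpc1 and Mpc2). All 9 passed the filter on low counts. The LSD1-mKO mice (n = 3) were Lsd1 flox/flox; TgACTA1-CreERT2/+ and the WT mice (n = 3) were Lsd1-floxed without CreERT2, all recorded as C57BL/6. Both genotypes started at 8 weeks of age, had a running wheel for 38 days, and received tamoxifen at 75 mg/kg on 5 days after 3 days of familiarization, so no group was sedentary or free of tamoxifen. They were fasted and kept from the wheel before the muscle was taken. CreERT2 was driven by the human ACTA1 promoter, which is active in differentiating and differentiated muscle cells, so other cells of the muscle keep LSD1, and loss of LSD1 cannot be told apart from the presence of the transgene in these mice.

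Pyruvate made by glycolysis or from lactate crosses the inner mitochondrial membrane through a heterodimer of MPC1 and MPC2. The pyruvate dehydrogenase complex then turns it into acetyl-CoA, which commits carbohydrate carbon to oxidation. The PDK enzymes phosphorylate and switch off the E1 subunit of the complex, and the PDP enzymes remove the phosphate and switch it on. In skeletal muscle, Pdk4 is known as the kinase gene that rises with fasting and fatty acid supply, Pdk2 as a broadly expressed form, and PDP1 as the calcium-activated phosphatase of contracting muscle.

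One poly(A) RNA library was made per mouse, with totals from 8940206 to 13798059 estimated counts. Levels are given as CPM, counts scaled to the TMM-normalized library size, which compare a gene between mice, or as TPM, which are also divided by transcript length and allow genes to be compared. Kdm1a, which encodes LSD1, was at 33.6 to 40.5 CPM in WT and 14.6 to 16.6 CPM in LSD1-mKO (log2 fold change -1.23, standard error 0.109, adjusted p = 0.0160, edgeR). This was the only gene called lower, and the call was lost with the replicate block, without WT replicate 2 and without any 1 LSD1-mKO mouse (adjusted p from 0.111 to 0.299, edgeR), while the log2 fold change stayed between -1.30 and -1.17 under all 14 alternatives. The slow fiber genes expected of Sol were abundant, with 8 of 8 tested and their summed level between 36179 and 48181 CPM. Sums over 9 fast fiber genes ran from 50148 to 73176 CPM in WT and from 50243 to 61819 in LSD1-mKO. Among these, Myh2 of type IIA fibers was at 14850 to 26503 CPM, while Myh4 of type IIB fibers was at 15 to 40.6 CPM. The groups overlapped for all 10 marker lists, which also covered adipocytes, brown adipocytes (Ucp1 at 0 in every library), endothelial, immune, Schwann and satellite cells and red blood cells. Summed fibroblast genes ran from 1329 to 4395 CPM in WT and from 1361 to 2801 in LSD1-mKO, and summed immune genes from 21.7 to 92.9 and from 26.9 to 60.7 CPM. All 6 fibroblast and all 4 tested immune genes were fitted lower in LSD1-mKO without passing, and their part in the results was not tested. In whole muscle, fewer cells of a type and less RNA per cell cannot be told apart.

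The promoters of the members that the results turn on are shown here from RefSeq (GRCm38.p6), each from 250 bases before RefSeq's own transcript start to 50 after it and read along the strand of the gene. These starts differ from the gene bounds printed elsewhere, which are GENCODE's: that of Pdk4 lies 31 bases and that of Pdp2 21 bases inside the GENCODE gene. Other starts lie farther inside, by 883 and 1550 bases for Mpc1 and 623 for Mpc2. A Pdk1 start lies 1680 and a Pdk2 start 479 bases inside. Windows were held for 8 of the 9 genes, 11 windows in all, with none for Pdp1. They were searched on both strands for the ERR half-site AAGGTCA, the FOXO site GTAAACA and the E-box CACGTG, the last of which reads the same on both strands, and no matches overlapped. The Pdk4 window is printed because Pdk4 varied most between mice, and it held none of the 3 motifs. That of Pdp2 is printed as the member with the smallest p in the genotype comparison, a choice made after its values were seen, and capitals mark its E-box, 219 bases before the RefSeq start.
Pdk4, chr6:5496229-5496528, minus strand: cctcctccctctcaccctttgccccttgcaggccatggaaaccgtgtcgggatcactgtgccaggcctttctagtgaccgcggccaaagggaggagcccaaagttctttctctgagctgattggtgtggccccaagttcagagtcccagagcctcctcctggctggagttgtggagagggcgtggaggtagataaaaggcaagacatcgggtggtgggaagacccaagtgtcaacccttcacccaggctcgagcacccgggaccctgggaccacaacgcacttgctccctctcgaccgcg
Pdp2, chr8:104591222-104591521, plus strand: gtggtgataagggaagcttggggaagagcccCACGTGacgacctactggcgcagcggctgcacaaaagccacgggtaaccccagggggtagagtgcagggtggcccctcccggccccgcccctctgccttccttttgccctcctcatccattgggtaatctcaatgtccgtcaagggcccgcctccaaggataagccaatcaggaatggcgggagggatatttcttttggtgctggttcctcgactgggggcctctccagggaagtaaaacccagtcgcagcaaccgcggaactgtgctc

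Of the 11 windows, 3 held an E-box (27.3%), those of Pdk2, Pdp2 and Pdpr, against 7.15% of all 32851 promoter windows. The E-box is a site bound by clock and MYC family factors. In Pdk2 it lay 126 bases and in Pdpr 172 bases before the RefSeq start. An ERR half-site was in 0 of the 11, against 4.72% of all windows, and a FOXO site in 0, against 3.65%. G and C made up 40.3% to 76.7% of the bases in the 11 windows, against a median of 52.7% over all windows. In the windows with an E-box they made up 64.7% (Pdk2), 60.7% (Pdp2) and 76.7% (Pdpr). The part of base composition in these shares was not tested. A match or its lack describes these letters in this window and says nothing of binding.

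Divided by length, Pdk4 was on average the most abundant of the 9 transcripts, and the kinases as a group far exceeded the catalytic phosphatases. Pdk4 stood at 1553, 663 and 1418 TPM in WT replicates 1 to 3 and at 1972, 1172 and 1689 TPM in LSD1-mKO replicates 1 to 3. It was above Mpc1 in 5 of the 6 mice, the exception being WT replicate 2, and the ranges of Pdk4 and Mpc1 overlapped. Next by mean TPM over the 6 mice came Mpc1 (970), Mpc2 (605), Pdk2 (538), Pdk1 (109), Pdp1 (49.5), Pdpr (29.9), Pdk3 (3.94) and Pdp2 (3.29). Apart from Pdk4 and Mpc1, the neighbours in this order whose ranges overlapped were Mpc2 with Pdk2, although Mpc2 was the higher in 6 of 6 mice, and Pdk3 with Pdp2, where Pdk3 was higher in 4 of 6. These TPM use the longest protein-coding transcript. With the union of all exons of a gene instead, Mpc2, whose annotated exons span 7344 bases against 1025 in that transcript, fell below Pdk2 to 119 TPM.

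Pdk4 made up most of the kinase message. For WT replicates 1 to 3 its share of the PDK sum in TPM was 70.2%, 50.3% and 71.6%. For the LSD1-mKO mice it was 76.3%, 61.4% and 71.3%. Pdk2 held 29.9% ± 10.1 in WT against 25% ± 6.36 in LSD1-mKO (SD, n = 3 each). Pdk1 held 5.87% ± 1.74 against 5.16% ± 1.21, and Pdk3 0.205% ± 0.118 against 0.201% ± 0.0478. The shares overlapped between genotypes for all 4 kinases. Replicate 2 of each genotype had the lowest Pdk4 share of its group, and in the stacked plot these are the mice with the shortest bars.

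**Figure D1:**
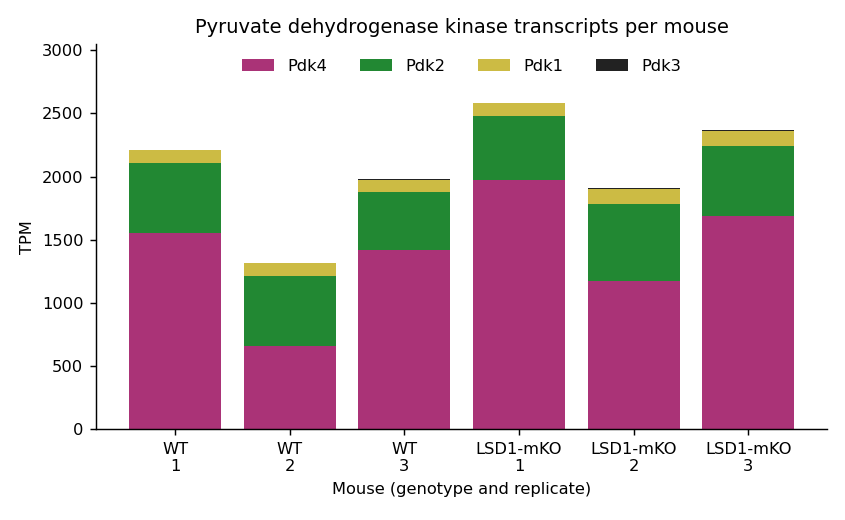
Stacked bars give the TPM of the 4 kinase genes in each of the 6 mice, named by genotype and replicate. The PDK sum ran from 1319 TPM in WT replicate 2 to 2585 TPM in LSD1-mKO replicate 1, and Pdk4 accounts for most of the difference in height.

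None of the 9 genes passed an adjusted p of 0.05 when LSD1-mKO mice were set against WT mice, where 2 of the 12828 genes tested did (0.0156%). The test was edgeR's quasi-likelihood test with Benjamini-Hochberg adjustment over all genes tested, and the adjusted p of the members lay between 0.726 and 0.958. The fitted level was higher in LSD1-mKO for 8 members and lower for Pdp1, with a median log2 fold change of 0.132, while 45.2% of all genes tested were fitted higher and their median was -0.020. An unadjusted p under 0.05 was found for 1 of the 9 (Pdp2), against 6.40% of all genes tested. The genotypes did not overlap for 2 of the 9 (Pdp2 and Mpc1), both with LSD1-mKO above, against 12.7% of all genes tested in either direction and 6.63% with LSD1-mKO above.

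**Figure D2:**
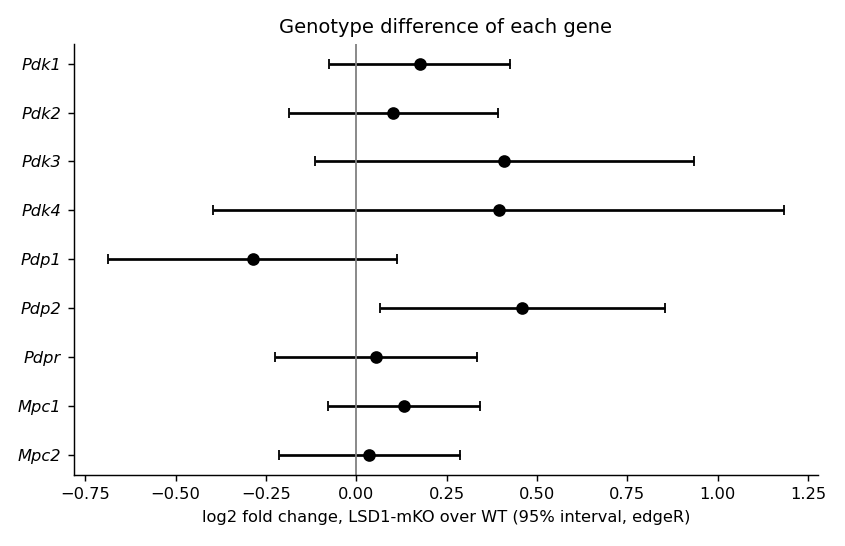
Points are log2 fold changes of LSD1-mKO over WT from edgeR for the 9 genes, and bars are 95% intervals. The interval of Pdp2, from 0.065 to 0.853, is the only one of the 9 that lies on one side of 0, and that of Pdk4 is the widest.

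Among the kinases, Pdk4 varied most between mice of the same genotype. Pdk4 (chromosome 6 of GRCm38, 5483351 to 5496309, minus strand, 11 exons) measured 2647, 972 and 2192 CPM in WT replicates 1 to 3 and 3133, 1847 and 2656 CPM in LSD1-mKO replicates 1 to 3. The highest WT mouse was 2.72 times the lowest, and the highest LSD1-mKO mouse 1.70 times the lowest, so that the groups overlapped. The means were 1937 ± 866 CPM for WT and 2545 ± 650 CPM for LSD1-mKO (SD, n = 3 each), a 1.31-fold difference with a 95% interval from 0.760 to 2.27 (adjusted p = 0.860, edgeR). WT replicate 2 set much of this value: without it the log2 fold change went from 0.394 to 0.073. The standard deviation of Pdk4 over the 6 mice, 0.606 on the log2 scale, was above that of 93.9% of genes tested, and the other 8 members had 0.102 to 0.329. Summed fast fiber markers were also lowest in replicate 2 of each genotype (50148 CPM in WT and 50243 in LSD1-mKO, against 58957 to 73176 in the other mice), and their part in the Pdk4 values was not tested.

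The remaining kinases were steadier. Pdk2 (chromosome 11, 95026258 to 95041354) measured 607, 517 and 459 CPM in WT and 519, 620 and 559 CPM in LSD1-mKO. Its fold of LSD1-mKO over WT was 1.07, with an interval from 0.878 to 1.31. Pdk1 (chromosome 2, 71873224 to 71903858), a kinase gene known to be induced by hypoxia, was at 266, 226 and 227 CPM in WT and 240, 285 and 287 CPM in LSD1-mKO, a fold of 1.13 with an interval from 0.95 to 1.34. In both genes WT replicate 1 lay within the LSD1-mKO range and LSD1-mKO replicate 1 was the lowest of its group. Pdk3 (chromosome X, 93764607 to 93832201) was near the low end of what could be compared, with 21 to 63 estimated counts per library. It measured 2.53, 3.96 and 3.11 CPM in WT and 3.85, 4.56 and 4.47 CPM in LSD1-mKO, where only WT replicate 2 reached into the LSD1-mKO range. The Pdk3 fold was 1.33 with an interval from 0.924 to 1.91 (adjusted p = 0.777, edgeR), the widest interval after that of Pdk4.

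The phosphatase subunits differed in fitted direction, and no difference passed. Pdp2 (chromosome 8, 104591451 to 104599026), the catalytic subunit with the lower level here, measured 7.11, 8.37 and 5.86 CPM in WT and 10.7, 9.12 and 9.50 CPM in LSD1-mKO. Each LSD1-mKO mouse was above each WT mouse (2-sided exact permutation p = 0.1, which no comparison of 3 with 3 can go below). The fold was 1.37, with an interval from 1.05 to 1.81, an unadjusted p of 0.0274 and an adjusted p of 0.726 (edgeR), so the difference did not pass over all genes tested. Behind it stood 59, 93 and 66 estimated counts in WT and 145, 126 and 102 in LSD1-mKO.

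Pdp1 (chromosome 4, 11958184 to 11966452), the main catalytic subunit, was fitted lower. It measured 91.98, 125 and 90.5 CPM in WT and 69.5, 103 and 79.6 CPM in LSD1-mKO. LSD1-mKO replicate 2 lay above WT replicates 1 and 3, so the groups overlapped, and the fold was 0.819 with an interval from 0.621 to 1.08 (adjusted p = 0.781, edgeR). Pdpr (chromosome 8, 111094630 to 111137074), the regulatory subunit that lowers the magnesium sensitivity of the phosphatase, was at 66.8, 64.1 and 65.4 CPM in WT and 65.8, 57.8 and 80.4 CPM in LSD1-mKO. All 3 WT values fell inside the wider LSD1-mKO range, and the fold was 1.04 with an interval from 0.855 to 1.26. The sign of the Pdpr difference turned when LSD1-mKO replicate 3 was left out, to a log2 fold change of -0.082.

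With Pdp1 and Pdp2 fitted on opposite sides of 0, the share of Pdp1 in the catalytic phosphatase message did not overlap between genotypes in TPM. In WT, Pdp1 made up 94.6%, 95.3% and 95.4% of the sum of Pdp1 and Pdp2, and in LSD1-mKO it made up 89.8%, 93.9% and 91.9%, each below all WT mice. The separation is narrow, from 93.9% to 94.6%. The share is built in part from Pdp2, whose genotypes did not overlap either, so it is not a separate result. Every other share, sum and ratio computed from the members overlapped. The sum itself overlapped, with WT at 57.6 ± 14.8 TPM and LSD1-mKO at 48.0 ± 8.99 TPM (SD, n = 3 each). For each TPM of catalytic phosphatase there were 46.8, 17.7 and 38.9 TPM of kinase in WT and 64.0, 33.0 and 51.8 in LSD1-mKO. The highest value was in LSD1-mKO replicate 1 and the lowest in WT replicate 2, and WT replicates 1 and 3 lay within the LSD1-mKO range. As scores over the members these are descriptions, with no test.

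The carrier subunits were high and even. Mpc1 (chromosome 17, 8282904 to 8297661) measured 420, 374 and 412 CPM in WT and 421, 463 and 438 CPM in LSD1-mKO. The lowest LSD1-mKO value was above the highest WT value by under 1 CPM, so the separation is narrow (2-sided exact permutation p = 0.1). The fold was 1.10 with an interval from 0.948 to 1.27 (adjusted p = 0.805, edgeR). Mpc1 is on the list of genes that the study clustered on these same mice as higher in LSD1-mKO, so its direction is not independent evidence. Mpc2 (chromosome 1, 165460637 to 165481214) was at 320, 262 and 250 CPM in WT and 274, 293 and 285 CPM in LSD1-mKO, with all LSD1-mKO mice inside the WT range. Its fold was 1.02 with an interval from 0.861 to 1.22, and the log2 fold change turned from 0.036 to -0.004 without WT replicate 2 and to -0.034 without WT replicate 3. WT had 1.56 ± 0.183 TPM of Mpc1 per TPM of Mpc2 and LSD1-mKO 1.65 ± 0.0288 (SD, n = 3 each). The level of this ratio rested on the transcript length used, at 5.16 and 5.47 with the exon union. Estimated counts of Mpc1 and Pdpr were not whole numbers in any of the 6 libraries, as happens where reads are divided among several places, and exons of both overlap a noncoding gene on the opposite strand (4930506C21Rik and 9430091E24Rik). The counting is not stated to use strand, so such reads cannot be told apart.

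**Figure D3:**
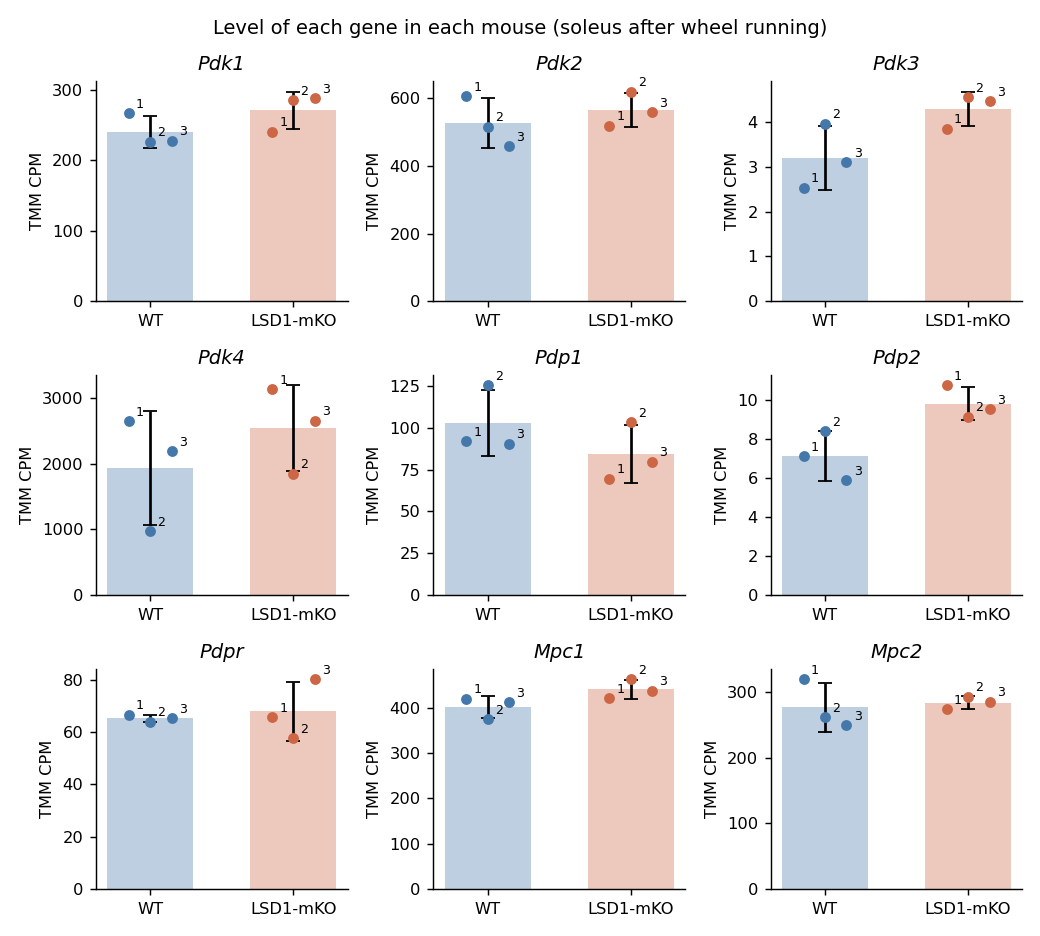
Each panel gives the TMM-normalized CPM of 1 gene, with a point per mouse numbered by replicate, a bar at the group mean and an error bar of 1 SD. In Pdk4 and Pdp1 replicate 2 of each genotype takes opposite extremes, while in Pdp2 and Mpc1 the LSD1-mKO points lie above all WT points.

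Pdk4 and Pdp1, whose products add and remove the same phosphate, ran in opposite directions across the mice. The 2 mice with the least Pdk4, WT replicate 2 (972 CPM) and LSD1-mKO replicate 2 (1847 CPM), had the most Pdp1 (125 and 103 CPM), and the mouse with the most Pdk4, LSD1-mKO replicate 1 (3133 CPM), had the least Pdp1 (69.5 CPM). Over the 6 mice, Pearson's r of the log2 CPM was -0.933 (permutation over all 720 orders, 2-sided, p = 0.00417) and Spearman's rho was -0.943 (permutation p = 0.0167). All 36 pairs of members were computed, and over these the adjusted values were 0.150 and 0.300 (Benjamini-Hochberg), so the relation did not pass. Without the 2 mice farthest from the median of Pdk4, both replicate 2, r was -0.815 over 4 mice, and for deviations from each genotype's own mean r was -0.920. By such deviations Pdk3 with Pdk4 gave -0.927, where r of the log2 CPM was -0.240, and Pdk2 with Mpc2 gave 0.920. A deviation r of this size was therefore not particular to Pdk4 with Pdp1. Of 12793 genes compared, 37 (0.289%), with Pdp1 among them, had an r with Pdk4 as low as that of Pdp1. In the other direction, 49 (0.383%) had an r of 0.933 or more. The ratio of Pdk4 to Pdp1 in TPM thus spanned 9.34 in WT replicate 2 to 54.4 in LSD1-mKO replicate 1. WT mice averaged 24.4 ± 13.3 and LSD1-mKO mice 38.7 ± 16.5 (SD, n = 3 each), with overlap.

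**Figure D4:**
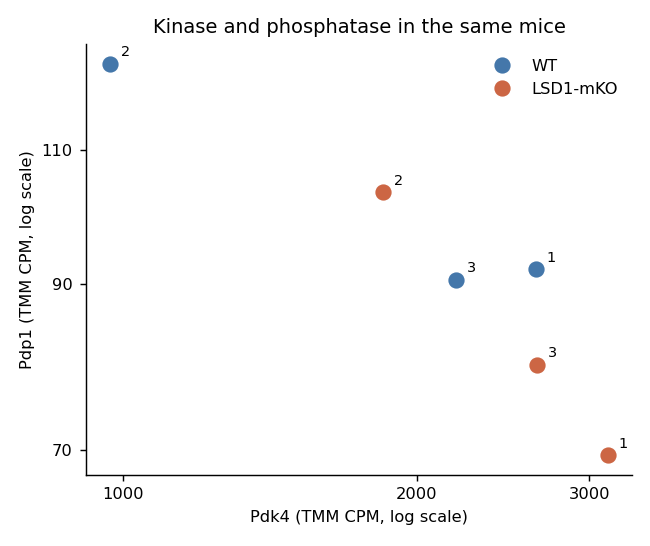
Each point is 1 of the 6 mice, numbered by replicate, with Pdk4 on the x axis and Pdp1 on the y axis, both in TMM-normalized CPM on log scales. The points fall from WT replicate 2 at the upper left to LSD1-mKO replicate 1 at the lower right, with mice of both genotypes between them.

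No other pair passed over the 36 either. The next smallest p-values were those of Pdk1 with Mpc1 (r = 0.821, permutation p = 0.0139, adjusted p = 0.183) and of Pdk2 with Mpc2 (r = 0.910, permutation p = 0.0153, adjusted p = 0.183). Without the 2 mice farthest from the median these were 0.596 for Pdk1 with Mpc1 and 0.974 for Pdk2 with Mpc2. Spearman's rho was 0.886 (permutation p = 0.0333, adjusted p = 0.400) for Pdk1 with Mpc1 and 0.943 (permutation p = 0.0167, adjusted p = 0.300) for Pdk2 with Mpc2.

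The genes whose pattern over the 6 mice was nearest to Pdk4 were sought among 10205 genes with a mean of at least 5 CPM, by the root mean square difference of log2 CPM after each gene was centred on its mean. They were Mhrt (0.255), Best3 (0.261), 6430548M08Rik (0.263), Sbk3 (0.270) and Myom2 (0.276), where a gene that did not vary would be at 0.553. Mhrt is a noncoding RNA of the Myh7 locus, so its reads cannot be told apart from those of Myh7 unless strand was used, Best3 is a member of the bestrophin chloride channels and Myom2 encodes a protein of the sarcomere M-band. Each was lowest in WT replicate 2, as was Pdk4: Myom2, for example, measured 818, 374 and 712 CPM in WT and 930, 506 and 544 CPM in LSD1-mKO. None of the 5 passed in the genotype comparison, with adjusted p from 0.766 to 0.998 (edgeR).

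Genes around the switch were counted in 6 lists, and none of their members passed an adjusted p of 0.05 in edgeR. The pyruvate dehydrogenase complex, the target of the kinases and phosphatases, had 5 genes tested with log2 fold changes from 0.003 for Pdhx to 0.168 for Pdha1 and a median of 0.070, against -0.020 over all genes tested. Pdha1, the E1 alpha subunit that carries the phosphorylated sites, was at 1373, 1055 and 1080 CPM in WT and 1168, 1357 and 1417 CPM in LSD1-mKO, with overlap. Of the 7 genes tested for lipoate and thiamine cofactors, 3 were fitted higher, up to 0.133 for Slc19a2, a thiamine transporter, with a median of -0.049. Of 16 genes for sources and other fates of pyruvate, 9 were fitted higher, with a median of 0.014. Me1, the cytosolic malic enzyme that yields pyruvate and NADPH, was at 104.2, 94.8 and 102 CPM in WT and 105.1, 134 and 132 CPM in LSD1-mKO (log2 fold change 0.297, unadjusted p = 0.0255, adjusted p = 0.718, edgeR). It was the only 1 of the 16 without overlap, and the separation is narrow. Of all genes tested, 6.63% had LSD1-mKO above WT without overlap. Pcx, which carboxylates pyruvate to oxaloacetate, had the lowest log2 fold change of that list, -0.278 (adjusted p = 0.766, edgeR), and Slc16a7 the highest, 0.649, at no more than 1.78 CPM in any mouse.

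The regulators known to act on Pdk4 went both ways, with 10 of 18 fitted higher and a median log2 fold change of 0.005. Of the 3 estrogen-related receptors, Esrrg and Esrrb were above WT in every LSD1-mKO mouse, as were 6.63% of all genes tested, and Esrra was not. Esrra, with the highest TPM of the 3, was at 192, 163 and 147 CPM in WT and 150.0, 161 and 180 CPM in LSD1-mKO, with overlap (log2 fold change -0.031, adjusted p = 0.969, edgeR). Esrrg was at 116 to 147 CPM in WT and 208 to 282 in LSD1-mKO (log2 fold change 0.964, adjusted p = 0.162, edgeR), while DESeq2 called it, as did edgeR on the unfiltered table. Esrrg is on the same list of the study as Mpc1. Esrrb was at 39.8, 36.0 and 30.6 CPM in WT and 52.0, 44.2 and 50.6 CPM in LSD1-mKO (log2 fold change 0.466, adjusted p = 0.534, edgeR). The FOXO genes, whose products activate Pdk4 in fasting, were split, with Foxo1 and Foxo3 fitted lower and Foxo4 fitted higher (log2 fold change 0.207, adjusted p = 0.810, edgeR). Foxo3 was below WT in every LSD1-mKO mouse, as were 783 of the 12828 genes tested. It was at 18.28 to 26.0 CPM in WT and 15.4 to 18.2 in LSD1-mKO, a narrow separation (log2 fold change -0.365, adjusted p = 0.766, edgeR). Foxo1 was at 160, 49.0 and 105 CPM in WT and 68.3, 56.0 and 104 CPM in LSD1-mKO, with overlap, and had the lowest log2 fold change of the list, -0.460 (adjusted p = 0.853, edgeR).

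Of 19 fatty acid responsive genes that are known to be induced together with Pdk4, 14 were fitted higher, with a median of 0.090, where 45.2% of all genes tested were fitted higher and the median was -0.020. Acot1, a cytosolic acyl-CoA thioesterase, was at 9.40, 5.58 and 6.31 CPM in WT and 15.5, 13.3 and 18.5 CPM in LSD1-mKO (log2 fold change 1.16, adjusted p = 0.281, edgeR), and passed with DESeq2. It was the only 1 of the 19 without overlap, where 6.63% of all genes tested had LSD1-mKO above without overlap. Angptl4, an inhibitor of lipoprotein lipase, had the lowest value of that list, -0.170. All 6 genes of the list of kinase and phosphatase relatives were fitted higher, with a median of 0.173, against the same 45.2% and -0.020. Among them is Bckdk, the kinase of the branched-chain ketoacid dehydrogenase. The list also holds subunits of that dehydrogenase, such as Bckdha, which are neither kinases nor phosphatases. Pptc7, a mitochondrial phosphatase of the PP2C family to which the PDP enzymes also belong, was at 233, 224 and 184 CPM in WT and 258, 238 and 327 CPM in LSD1-mKO (log2 fold change 0.363, unadjusted p = 0.0332, adjusted p = 0.729, edgeR). It was the only 1 of the 6 without overlap, against the same 6.63% of all genes tested, and it too is on that list of the study. Bckdha, a substrate of BCKDK, had a log2 fold change of 0.006.

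**Figure D5:**
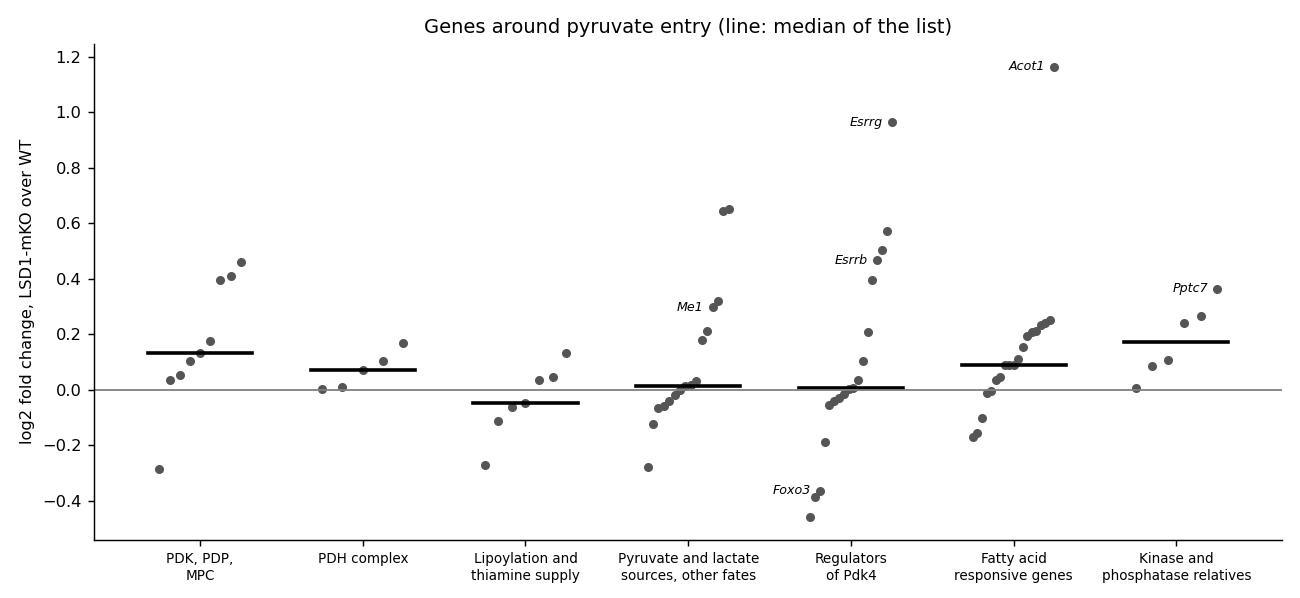
Points are log2 fold changes of LSD1-mKO over WT from edgeR for the 9 members and for the tested genes of each of the 6 lists, and horizontal lines are list medians. Named points are list genes whose genotypes did not overlap, with Acot1 (1.16) and Esrrg (0.96) highest and Foxo3 (-0.365) the only named one below 0.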

How the data were processed

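Poly(A) RNA of Sol from 3 WT and 3 LSD1-mKO mice was read as 75-base single-end reads, which the authors aligned to mm10 with STAR; the counting tool and annotation are not given in the sources used here. The authors deposited estimated counts per gene, not normalized, 1 column per mouse, matched to samples by the number that opens each title. They also deposited their own DESeq2 fold changes and p-values, which were not used. Estimated counts were rounded and compared with edgeR 4.0.16 in R 4.3.3 (TMM, filterByExpr, quasi-likelihood test, Benjamini-Hochberg over 12828 genes, threshold 0.05). DESeq2 1.42.0 and limma 3.58.1 (voom) were alternatives, as were other scalings and filters, a replicate block and each mouse left out. TPM and coordinates used GENCODE vM21 (GRCm38, the assembly of mm10); 374 symbols had no length. The steps were tested on simulated data. Intervals of fold changes are 95%. The replicates are separate mice by their titles.

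The members and the gene lists were chosen with earlier results of these data known. Named are every member, Kdm1a, list genes that passed, did not overlap or had the extreme fold change of their list, and the 5 genes nearest to the most variable member; 1 gene that this rule names is not reported here. Bckdk, Esrra, Foxo4, the marker genes named and the Pdp2 promoter were chosen after their values were seen.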

Additional observations from a re-analysis of the deposited data

How the results depend on the processing

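The log2 fold changes of the 9 genes did not pass the threshold under any of the 14 alternatives, and 123 of 126 values kept their direction. Those that did not were of Pdpr, which ranged from -0.082 to 0.166 with 1 mouse left out and was below 0 without LSD1-mKO replicate 3, and of Mpc2, from -0.034 to 0.153, below 0 without WT replicate 2 (-0.004) or 3. Pdk4 ranged from 0.073 without WT replicate 2 to 0.688, Pdk2 from 0.012 to 0.218, Pdp1 from -0.454 to -0.116 and Pdp2 from 0.333 to 0.601. The adjusted p of Pdp2 over the alternatives was 0.336 to 1.00, and its unadjusted p was under 0.05 in 10 of 14. An unadjusted p under 0.05 also came up in 2 of 14 for Pdp1 and in 1 of 14 for each of Pdk1, Pdk3 and Pdk4.

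Over all genes, 1 was called higher and 1 lower; DESeq2 called 33 and 9, edgeR without a filter 8 and 3, and voom 2 higher. With 1 mouse left out, 1 to 2 were called higher (2 without WT replicate 1) and 0 to 1 lower (0 without WT replicate 2 or any 1 LSD1-mKO mouse). With the replicate number as a block, 0 were called lower; the call lost in each case was that of Kdm1a, and no member was called. Same-numbered mice gave correlations of their deviations of -0.373, -0.089 and -0.145 over genes, which give no sign of pairing by number but do not settle it for single genes. Replicate 2 had the least Pdk4 and the most Pdp1 of its group in both genotypes. With the replicate block the unadjusted p was 0.0432 for Pdk4 and 0.0234 for Pdp1 (adjusted p = 0.98 for each, edgeR). In the lists, DESeq2 called 1 regulator of Pdk4 and 1 fatty acid responsive gene, and edgeR without a filter 1 regulator. With exon union lengths the PDK sum was 2310 TPM in WT and 2926 in LSD1-mKO, the sum of Pdp1 and Pdp2 was 75.8 and 63.5 TPM, Mpc1 per Mpc2 was 5.16 and 5.47, and the Pdk1 share in LSD1-mKO was 3.82%. The cause of these shifts in calls was not tested; the TPM shifts follow from the length used. Pdk3 and Pdp2 had the fewest estimated counts, 21 to 145 per library.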
